A study of Arabidopsis thaliana with 20 samples.

Results

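The 4 genes described here, AT3G01190, AT5G17820, AT5G64100 and AT1G14550, encode class III peroxidases and lie outside the set of peroxidases tied to lignin. They were chosen by name, with earlier results of these arrays in view, for opposite behaviour under dexamethasone (DEX) in 2 Arabidopsis thaliana lines. Each had 1 probe set named for it alone, so all 4 members were measured, out of 13286 genes named on the array and 22746 probe sets. Class III peroxidases are counted as a family of 73 genes in the list used here, and 55 of them, these 4 and 51 others, had a probe set of their own. No filter on low values was applied, so no member was lost to one.

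Class III peroxidases are haem enzymes that plants secrete to the cell wall and the vacuole. They use hydrogen peroxide to oxidise phenolic compounds, which cross-links wall polymers and polymerises monolignols into lignin, and they can also release reactive oxygen and so loosen walls. Many are expressed in roots and respond to wounding, pathogens and hormones. In xylem vessels, which VND7 helps to form, some of them act in the lignification of the secondary wall.

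The study measured transcripts in whole seedlings that were 10 days old, on 1-colour Affymetrix arrays, in 4 groups of 5 arrays numbered 1 to 5. The tested line carried 35S:VND7-VP16-GR, in which VND7, a NAC transcription factor, is fused to VP16, a strong transcriptional activator, and to the steroid-binding part of the glucocorticoid receptor (GR), and the other, labelled empty vector, carried 35S:VP16-GR. Each was labelled homozygous for a single insertion, so each line rests on 1 insertion event, and the 35S promoter drives a transgene in most tissues rather than in xylem alone. Groups of each line were VND7 with DEX and cycloheximide (CHX), VND7 with CHX alone, empty vector with DEX and CHX, and empty vector with CHX alone. All 4 groups thus had CHX, which blocks protein synthesis, for 6 h in all, and the DEX groups had DEX in the last 4 h. The protocol gives 10 µM for both compounds and other label fields give 10 mM, a conflict that was not settled. DEX lets a protein with the GR domain enter the nucleus, and the VP16-GR protein of the empty-vector line holds that domain too. The design asks which genes VND7 acts on while new proteins are not being made, and the line without VND7 shows what DEX does together with the VP16-GR protein. Nothing in the labels says that arrays of a group are separate cultures. The p-values therefore measure array-to-array spread within groups, and part or all of it may be technical.

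Levels are given below as signal relative to the median of the array, the scale on which the authors deposited them, so that 1 is the median probe set of that array. Levels of one gene were compared between arrays, and never with those of another gene. Array medians on the MAS5 scale were 159.7 to 186 and overlapped between all 4 groups. Replicate numbers paired the arrays across groups, and changes are therefore also given for each same-numbered pair. Of the markers fixed for the tissue, 2 of 10 shoot genes were measured, RCA and LHCB4.1, and both were abundant in every group. Of 10 root genes 2 were measured, the root hair expansins EXPA7 and EXPA18, at 0.233 to 0.374 as group means. None of these 4 passed the test in any group comparison. For the 2 root genes, far below the array median, the errors were too wide for that to say much. Under DEX in the empty-vector line EXPA7 changed by -0.96 ± 0.58 and EXPA18 by -0.26 ± 0.28 on the log2 scale (SE of the fit). Whether the share of root tissue moved with the peroxidases was thus not tested. In whole seedlings, fewer cells of a type and less RNA per cell cannot be told apart.

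AT3G01190 was higher under DEX in the empty-vector line and not in the VND7 line. Its relative signal in the VND7 line was 5.87, 4.92, 4.43, 7.31 and 7.77 with DEX, in replicates 1 to 5, against 6.35, 5.19, 6.26, 8.43 and 8.58 with CHX alone. These ranges overlapped, yet the DEX array was the lower one in all 5 pairs. In the empty-vector line it was 19.8, 20, 19.7, 33 and 32.6 with DEX, against 4.70, 4.36, 6.43, 7.95 and 7.47 with CHX alone. Every empty-vector array with DEX was above every array of the other 3 groups, and those other groups overlapped each other. The lowest of the 5 empty-vector DEX arrays was 2.48 times the highest with CHX alone. The group means were 6.06 ± 1.46 with DEX and 6.96 ± 1.48 with CHX in the VND7 line, and 25 ± 7.09 with DEX and 6.18 ± 1.61 with CHX in the empty-vector line (SD, n = 5). The change under DEX on the log2 scale was -0.21 ± 0.21 with VND7 and 2.01 ± 0.21 with the empty vector (SE of the fit over all arrays), the second of which is a 4.04-fold higher level. Because the gene was chosen for this contrast, these changes are a description and carry no test.

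AT5G17820 was likewise highest in the empty-vector line with DEX. In the VND7 line its relative signal was 3.73, 3.49, 2.49, 3.73 and 4.51 with DEX, against 3.81, 4.03, 4.30, 4.30 and 3.98 with CHX alone. In the empty-vector line it was 10.2, 10.2, 9.87, 16.6 and 19.3 with DEX, against 4.07, 3.34, 4.61, 5.70 and 6.51 with CHX alone. All 5 empty-vector arrays with DEX again stood above the other 15, and the other 3 groups overlapped each other. The group means were 3.59 ± 0.725 with DEX and 4.08 ± 0.216 with CHX in the VND7 line, and 13.2 ± 4.4 with DEX and 4.84 ± 1.27 with CHX in the empty-vector line (SD, n = 5). The change under DEX was -0.21 ± 0.20 on the log2 scale with VND7 and 1.43 ± 0.20 with the empty vector, which is 2.69-fold higher. With VND7 the sign was not shared by all pairs: DEX was lower in 4 and higher in 1, replicate 5, and the single values ran between -0.79 and 0.18. The label of opposite behaviour thus describes this gene less well than "higher in the empty-vector line, little changed with VND7".

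AT5G64100 was lower in the VND7 line in every same-numbered pair, with and without DEX. In the VND7 line its relative signal was 8.77, 5.58, 7.06, 7.93 and 11.5 with DEX, against 15.9, 9.43, 10.1, 9.93 and 11.5 with CHX alone. In the empty-vector line it was 48.1, 29.2, 26.8, 37.8 and 48.4 with DEX, against 18.8, 13, 14.7, 15.4 and 15.9 with CHX alone. The order of the group means was empty vector with DEX (38 ± 10.1), empty vector with CHX (15.5 ± 2.11), VND7 with CHX (11.4 ± 2.64) and VND7 with DEX (8.16 ± 2.19; SD, n = 5). The middle groups overlapped in range, as did both VND7 groups, while VND7 with DEX lay wholly below both empty-vector groups. The change under DEX on the log2 scale was -0.49 ± 0.20 with VND7 and 1.26 ± 0.20 with the empty vector (SE of the fit over all arrays). With the empty vector the level was thus 2.39-fold higher under DEX. The change was negative in all 5 VND7 pairs, from -0.86 in replicate 1 to -0.01 in replicate 5. It was positive in all 5 empty-vector pairs, from 0.87 to 1.60.

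AT1G14550 showed another pattern, with its lowest mean level in the VND7 line with DEX. Its relative signal in that line was 3.88, 8.68, 8.35, 5.89 and 5.45 with DEX, against 6.19, 13.1, 12.7, 8.82 and 7.79 with CHX alone. In the empty-vector line it was 7.33, 12, 11.5, 7.99 and 7.01 with DEX, against 8.14, 13.5, 11.3, 7.72 and 7.51 with CHX alone. The ranges of all 4 groups overlapped, as arrays of replicates 2 and 3 were high in every group. The group means were 6.45 ± 2.03 with DEX and 9.73 ± 3.06 with CHX in the VND7 line, and 9.18 ± 2.4 with DEX and 9.63 ± 2.65 with CHX in the empty-vector line (SD, n = 5). Within same-numbered pairs the VND7 change was narrow, between -0.67 and -0.52 on the log2 scale, with a mean of -0.60 and an SD of 0.056 over 5 pairs, a level 1.51-fold lower with DEX. The empty-vector change was -0.15, -0.17, 0.03, 0.05 and -0.10, negative in 3 pairs and positive in 2, with a mean of -0.07 and an SD of 0.10. The behaviour of this gene was thus a lower level with DEX and VND7 and no steady direction with the empty vector, rather than opposite changes.

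**Figure D1:**
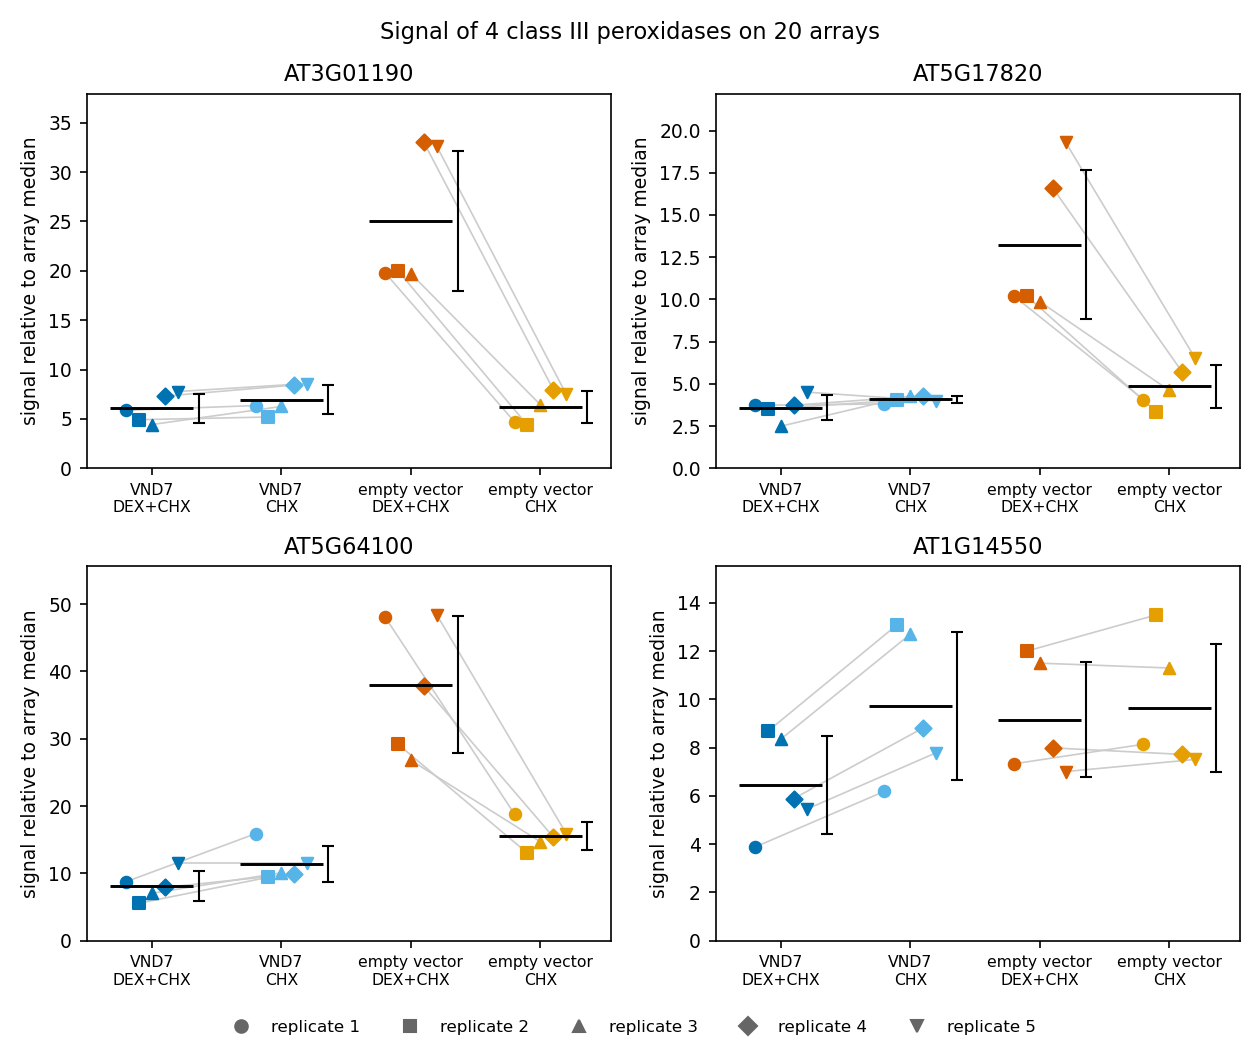
Signal relative to the array median (vertical axis, from 0) of the 4 peroxidases in VND7 with DEX and CHX, VND7 with CHX, empty vector with DEX and CHX, and empty vector with CHX. Each point is an array (shape gives the replicate number), grey lines join same-numbered arrays of a line, black lines are means and bars 1 SD of 5 arrays. The empty-vector arrays with DEX stand apart from the rest for AT3G01190, AT5G17820 and AT5G64100, and all VND7 pairs of AT1G14550 are lower with DEX.

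Setting the lines side by side, 3 of 4 members had an empty-vector DEX group wholly above the empty-vector CHX group, which 0.822% of all probe sets also had. The same 3 had a VND7 DEX group wholly below the empty-vector DEX group, which 0.901% of all probe sets had. The VND7 DEX group lay wholly below the VND7 CHX group for 0 of 4, against 0.171% of all probe sets. A lower DEX array in 5 of 5 VND7 pairs was seen for 3 of 4 (AT5G17820 was the exception) and in 3.89% of all probe sets, and a higher one in 5 of 5 empty-vector pairs for 3 of 4 (AT1G14550 was the exception) and in 4.72%. Both of these together was seen for 2 members, AT3G01190 and AT5G64100, and in 0.22% of all probe sets. Since the rule used these contrasts, the counts add no support.

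The difference between the changes of the lines, VND7 minus empty vector, was -2.22 on the log2 scale for AT3G01190, with single pairs between -2.28 and -2.12. For AT5G17820 it was -1.64, with pairs between -1.89 and -1.36. For AT5G64100 it was -1.75, with pairs between -2.21 and -1.39. For AT1G14550 it was -0.53, with pairs between -0.64 and -0.42. All 20 of these pair values were negative. The genes were chosen for this contrast pair by pair, so the shared sign adds no support. The spread over pairs was narrowest for AT3G01190, with an SD of 0.069 for the difference against 0.17 for the VND7 change and 0.23 for the empty-vector change. In replicate 3 that gene's change was the lowest of the 5 in both lines, -0.50 with VND7 and 1.62 with the empty vector. AT5G17820 was also lowest in replicate 3 in both lines, at -0.79 with VND7 and 1.10 with the empty vector.

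**Figure D2:**
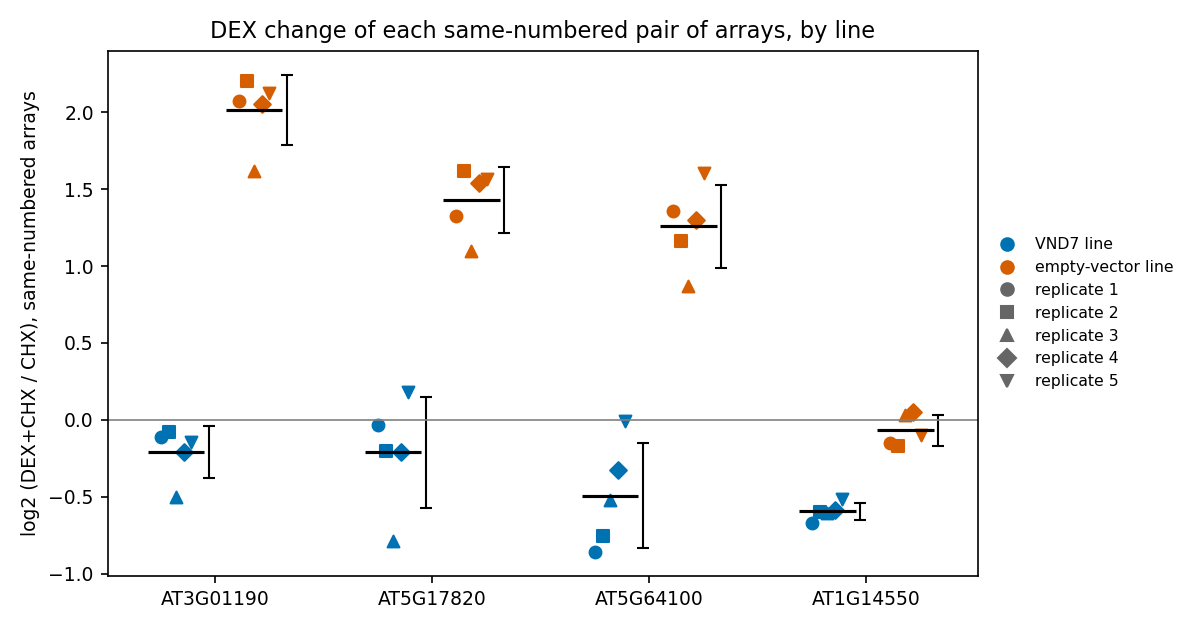
Change under DEX in each same-numbered pair of arrays (log2 of DEX and CHX over CHX, vertical axis) for the 4 peroxidases, VND7 pairs in blue left of empty-vector pairs in orange. Horizontal lines are means and bars 1 SD of 5 pairs. The lines do not overlap for any gene, a contrast for which the genes were chosen. The empty-vector pairs of AT3G01190 lie between 1.62 and 2.20 and its VND7 pairs between -0.50 and -0.08.

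The difference between the lines is given as a description too, since its mean over both treatments includes the empty-vector arrays with DEX on which the genes were chosen. That mean on the log2 scale, VND7 over empty vector, was -1.34 ± 0.14 for AT5G64100 (SE of the fit), -1.03 ± 0.14 for AT5G17820 and -0.93 ± 0.15 for AT3G01190. For AT1G14550 it was -0.27 ± 0.18. It was negative in 5 of 5 pairs for each, and for AT1G14550 the pairs ran between -0.66 and -0.12. The share of all probe sets with 1 sign in 5 of 5 such pairs was not counted. Some other peroxidases had it too, among them AT4G30170 as negative and AT4G36430 as positive.

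Replicates 2 and 3, and replicates 4 and 5, deviated from their group means together (r = 0.514 to 0.779 between groups, across probe sets, against -0.697 to -0.0582 for other unlike numbers). No label names a batch, so this grouping is from the data. For that reason the difference between the lines was also taken within replicate 1, within replicates 2 and 3, and within replicates 4 and 5. For AT5G64100 it was -1.35, -1.33 and -1.36 on the log2 scale. For AT5G17820 it was -0.77, -0.84 and -1.34, and for AT3G01190 -0.66, -0.99 and -0.99. For AT1G14550 it was -0.66, -0.20 and -0.14, so that replicate 1 held the largest part of it. All 12 values were negative, but they include the empty-vector arrays with DEX on which the genes were chosen, so the shared sign adds no support.

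Split by treatment, the difference between the lines with DEX was -2.04 on the log2 scale for AT3G01190, -1.85 for AT5G17820, -2.22 for AT5G64100 and -0.53 for AT1G14550. Each was negative in 5 of 5 pairs. Without DEX it was 0.19 for AT3G01190, higher in the VND7 line in 4 of 5 pairs. It was -0.21 for AT5G17820, lower in 4 of 5, and 0.00 for AT1G14550, lower in 2 of 5. AT5G64100 alone of the members was lower without DEX in all 5 pairs, by -0.24, -0.46, -0.54, -0.63 and -0.46. Its mean difference without DEX was -0.47 ± 0.14 (SD over 5 pairs). Of the other peroxidases, AT4G25980 was also lower without DEX in 5 of 5 pairs, and AT4G17690 was higher in 5 of 5. For neither treatment was the share of all probe sets with 1 sign in 5 of 5 line pairs counted. For AT3G01190 the mean over both treatments was thus negative through the arrays with DEX alone.

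**Figure D3:**
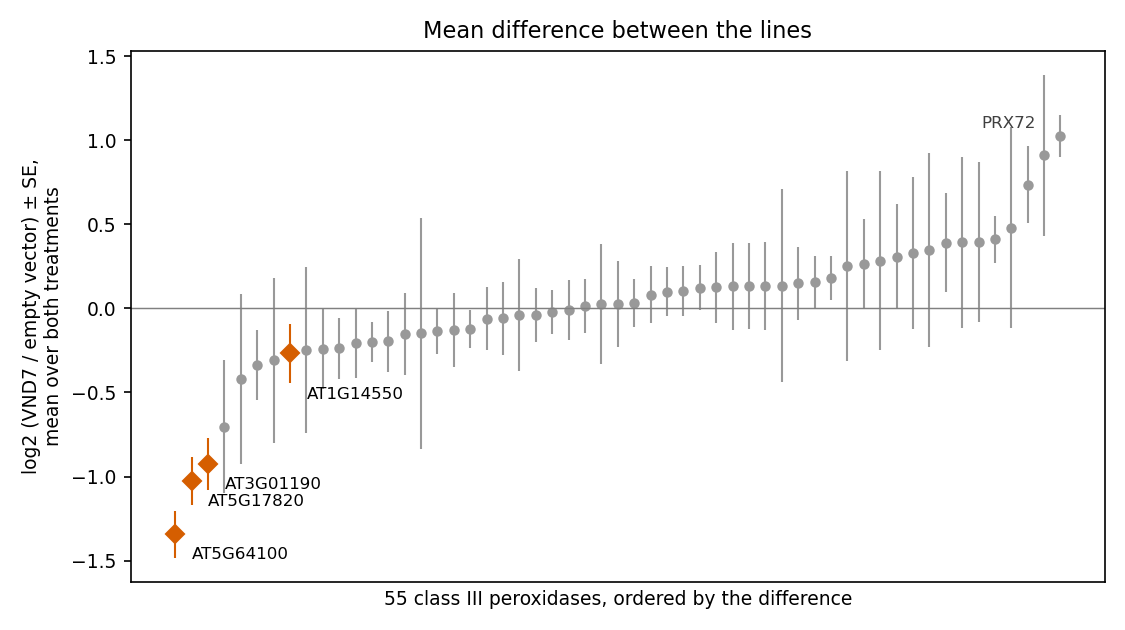
Mean log2 difference between the lines over both treatments (VND7 over empty vector, vertical axis, bars 1 SE of the fit) for 55 class III peroxidases in order of the value. AT5G64100, AT5G17820 and AT3G01190 lie at -1.34, -1.03 and -0.93, below the lowest of the other 51 at -0.70, and PRX72 is at 1.03; the means of the 4 members include the arrays on which they were chosen.

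The rest of the family gave the setting for these 4. Of the 51 other class III peroxidases measured, 1 passed in the DEX response of the VND7 line, PRX72 (AT5G66390), a peroxidase of lignin formation, where 0.453% of all probe sets passed (1.04% in a fit that also held the replicate number as a block, where it was again the 1 of 51). Its relative signal was 9.04 ± 1.63 with DEX and 3.95 ± 0.866 with CHX alone (SD, n = 5; log2 change 1.20 ± 0.18, limma adjusted p = 0.0007296). PRX72 was also the 1 of 51 to pass in the mean line difference, upwards (1.03 ± 0.12, limma adjusted p = 4.607e-05; 0.651% of all probe sets passed upwards and 0.857% in either direction), and in the difference between the DEX responses (1.20 ± 0.25, limma adjusted p = 0.03063; 0.391% of all probe sets), the direction opposite to that of the 4 members. In the fit without the block, that last call was lost without any 1 of 11 arrays (limma adjusted p = 0.0513 to 0.07247). With the block and all arrays it passed (limma adjusted p = 0.004806), as did 1.05% of all probe sets. The median log2 change of the 51 under DEX was -0.02 with VND7 and -0.04 with the empty vector, against -0.02 and -0.01 over all probe sets. The median of their mean line difference was 0.08, against 0.00.

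In the empty-vector line 0 of the 51 others passed under DEX by limma, where 0.281% of all probe sets did. An unadjusted limma p under 0.05 was seen for 0 of the 51 and for 832 of the 22746 probe sets. With the replicate number as a block 1 of the 51 passed, AT4G30170, among 0.712% of all probe sets. Its relative signal was 5.71 ± 2.58 with DEX and 3.67 ± 1.19 with CHX alone in that line (SD, n = 5), a log2 change of 0.59 ± 0.09 with the block (limma adjusted p = 0.001257), higher in 5 of 5 pairs. In the VND7 line its level was 4.01 ± 1.93 with DEX and 3.79 ± 1.47 with CHX. The difference between its responses was -0.54, negative in 5 of 5 pairs, between -0.67 and -0.46, and did not pass in either fit (limma adjusted p = 0.0513 with the block, which 1.05% of all probe sets passed). With the block, AT2G43480 (log2 difference 0.74 ± 0.17, limma adjusted p = 0.01893) and AT4G36430 (0.41 ± 0.09, limma adjusted p = 0.01155) also passed as higher in the VND7 line over both treatments, where 2.7% of all probe sets passed in either direction.

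Among the chromosomal neighbours of AT5G64100 are other peroxidases. The 2 protein-coding genes that follow it in the RefSeq order, AT5G64110 and PRX71 (AT5G64120), are class III peroxidases too. AT5G64110 was at 0.955 ± 0.215 with DEX and 0.848 ± 0.228 with CHX in the VND7 line, and at 1.22 ± 0.413 with DEX and 0.911 ± 0.302 with CHX in the empty-vector line (SD, n = 5). Its DEX change in the empty-vector line was 0.41 ± 0.25 on the log2 scale (limma adjusted p = 1). It was higher with DEX in 5 of 5 pairs of either line, by 0.05 to 0.90 in the empty-vector pairs and by 0.07 to 0.47 in the VND7 pairs. Its mean difference between the lines was -0.20, negative in 5 of 5 pairs. PRX71 was at 20.7 ± 3.99 with DEX and 22.5 ± 5.09 with CHX in the VND7 line, and at 24.9 ± 3.23 with DEX and 22.5 ± 6.4 with CHX in the empty-vector line. AT5G64090, which precedes AT5G64100, was at 3.95 ± 0.554 with DEX and 3.8 ± 0.562 with CHX in the VND7 line, and at 3.36 ± 0.6 with DEX and 3.21 ± 0.542 with CHX in the empty-vector line. AT5G17830, which follows AT5G17820, was at 0.399 ± 0.137 with DEX and 0.461 ± 0.154 with CHX in the VND7 line. In the empty-vector line it was at 0.917 ± 0.488 and 0.556 ± 0.293. It was higher with DEX in 5 of 5 empty-vector pairs and in 2 of 5 VND7 pairs. The other measured neighbours, AT5G17840 and AT3G01210, were higher with DEX in 2 and 3 of 5 empty-vector pairs and in 4 and 1 of 5 VND7 pairs. Whether neighbouring genes differ in response from the members was not tested. AT1G14550 stands beside PER4 (AT1G14540), another peroxidase, which was not analysed here.

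**Figure D4:**
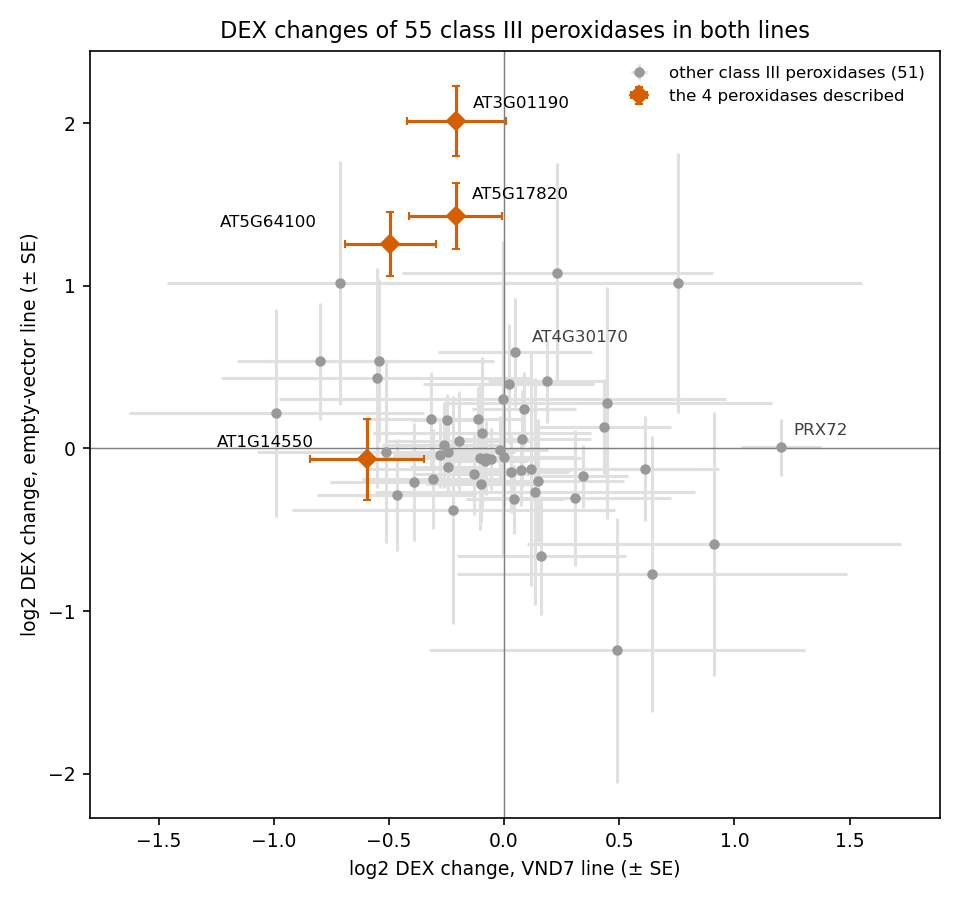
Log2 change under DEX in the VND7 line (horizontal axis) and in the empty-vector line (vertical axis) for 55 class III peroxidases, with bars of 1 SE of the fit. The lines share no arrays. AT3G01190, AT5G17820 and AT5G64100 lie highest on the empty-vector axis (2.01, 1.43 and 1.26), AT1G14550 lies at -0.60 on the VND7 axis, and most of the other 51 lie near 0 on both or have wide errors.

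Other genes of reactive oxygen metabolism and of rapid stress responses were measured in part. NADPH oxidases of the RBOH family make the superoxide from which peroxidases receive their hydrogen peroxide, and 3 of 10 were measured. AT4G25090 was at 0.778 ± 0.251 with DEX and 1.03 ± 0.257 with CHX in the VND7 line, and at 1.97 ± 0.581 with DEX and 1.12 ± 0.325 with CHX in the empty-vector line (SD, n = 5). It was lower with DEX in 5 of 5 VND7 pairs and higher in 5 of 5 empty-vector pairs, as were 0.22% of all probe sets. The difference between its responses, -1.24 ± 0.38 on the log2 scale, did not pass without the block (limma adjusted p = 0.4261). It passed with the block (limma adjusted p = 0.0009609), as did 1.05% of all probe sets. Its DEX change in the empty-vector line, 0.81 ± 0.27, also passed only with the block (limma adjusted p = 0.725 without and 0.00243 with it, which 0.712% of all probe sets passed). In the mean line difference 0 of the 3 passed as lower without the block and 1 did with it. With the block 225 of the 22746 probe sets passed as lower, and 2.7% passed in either direction. AT4G11230 had a difference of 0.86 ± 0.37 (limma adjusted p = 1). Of 10 elicitor and stress genes only 2 were measured, WRKY53 and STZ, transcription factors of defence and stress signalling. Their differences between responses were -0.28 ± 0.41 and -0.14 ± 0.18 (limma adjusted p = 1 for both). The 10 superoxide dismutases and catalases of the list, none with a single-gene probe set, were not analysed here. Of 6 reference genes 3 were measured, with differences between -0.12 and 0.01.

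The level of every member also varied with the replicate number, a measure the rule did not use. All 4 members passed the moderated F test over the 5 replicate numbers, as did 44.5% of all probe sets and 26 of the 51 other peroxidases (51%), so that passing it was common. AT1G14550 had the largest spread of the members between numbers, 1.89-fold from lowest to highest (limma adjusted p = 2.956e-07). Its mean over the 4 groups, relative to all arrays, was -0.44 in replicate 1, 0.48 and 0.38 in replicates 2 and 3, and -0.15 and -0.28 in replicates 4 and 5 on the log2 scale. AT3G01190 spanned 1.64-fold (limma adjusted p = 8.183e-06) and was at -0.19, -0.35, -0.19, 0.36 and 0.37. AT5G17820 spanned 1.47-fold (limma adjusted p = 0.01062, and 0.06 without replicate 5), with the same numbers high, at -0.14, -0.21, -0.20, 0.20 and 0.35. AT5G64100 spanned 1.58-fold (limma adjusted p = 0.0003469) and was highest in replicates 1 and 5, at 0.33 and 0.25, and lowest in replicate 2, at -0.33. Replicates 2 and 3 were therefore the high ones for AT1G14550 and were low for the other 3.

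**Figure D5:**
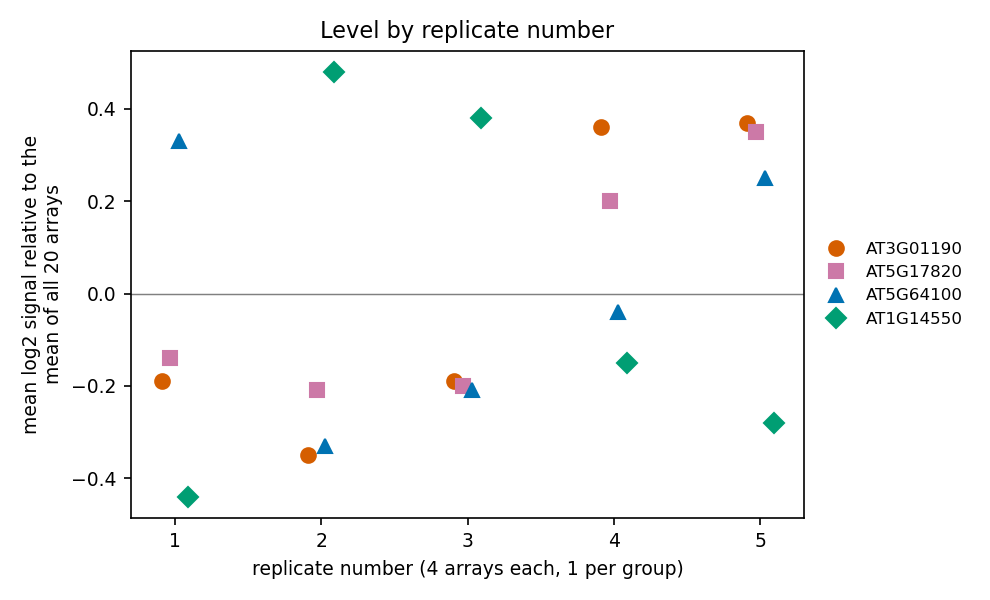
Mean log2 signal of each peroxidase over the 4 arrays of a replicate number, 1 from each group, relative to its mean over all 20 arrays (vertical axis), by replicate number (horizontal axis). AT3G01190 and AT5G17820 are high in replicates 4 and 5, AT5G64100 in replicates 1 and 5, and AT1G14550 in replicates 2 and 3.

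The genes whose pattern over the 20 arrays was most like each member were found by Pearson's r after the mean of each replicate number had been removed, among 5940 single-gene probe sets above the median. For AT3G01190 they were AT1G35330 (r = 0.973), GH3.17, of the GH3 family of enzymes that join auxin to amino acids (r = 0.959), and AT5G17820 (r = 0.958). For AT5G17820 they were AT3G46700 (0.959), AT5G43520 (0.959) and AT3G01190 (0.958). For AT5G64100 they were AT5G43520 (0.973), AT2G44380 (0.973) and AT4G19520 (0.971). All of these r rest on 20 arrays that share 4 group means, and are given with no test. The arrays include the empty-vector DEX group on which the members were chosen, so a gene raised there scores high. The median filter used that group too. AT1G35330 had a group mean of 3.52 there and 0.895 to 0.953 in the other groups, and AT3G46700 had 2.1 there and 0.834 to 1.06. Whether such genes passed the filter through that group alone was not tested. GH3.17 was at 1.05 ± 0.385 with DEX and 1.09 ± 0.260 with CHX in the VND7 line, and at 4.05 ± 1.42 with DEX and 1.07 ± 0.398 with CHX in the empty-vector line (SD, n = 5). AT5G43520 was at 3.68 ± 1.35 with DEX and 4.99 ± 1.08 with CHX in the VND7 line, and at 16.8 ± 6.85 with DEX and 5.83 ± 1.68 with CHX in the empty-vector line. The likest to AT1G14550 were AT3G46800 (0.890), AT4G09100 (0.835) and AT5G52580 (0.804), with lower r than the genes most like the other members. With the replicate means left in, r for the first and second of these was 0.894 and 0.807, and for AT5G52580 it was 0.436. AT3G46800 was at 1.56 ± 0.832 with DEX and 2.43 ± 0.966 with CHX in the VND7 line, and at 2.02 ± 0.854 with DEX and 2.53 ± 0.837 with CHX in the empty-vector line.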

How the data were processed

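Transcripts of 20 whole-seedling samples, 4 groups of 5 by their titles, were measured on 1-colour arrays. Signals were made with MAS5, per the submitters' processing notes, with no version. The authors' deposited values are natural logs of the signal over its array's median: each column has a median of 0, and the exponentials were whole multiples of a single step for 100% of the values checked on each array (13796 to 14327 values under 3000 steps, tolerance 0.02). The step was taken as 0.1 of a MAS5 signal. Values were turned into log2 with no pseudocount. The number of arrays limits the precision.

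Gene names came from the platform annotation given for this array, updated through RefSeq (assembly TAIR10.1, names and gene order only). Of the probe sets 13436 (59.1%) had 1 matched gene, 503 several, 77 an unmatched gene and 8730 no entry. No sequence or coordinate is printed, and no column was left unused.

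A linear model of the 4 groups was fitted to all 22746 probe sets by limma 3.58.1 (R 4.3.3, lmFit, then eBayes with trend), with a Benjamini-Hochberg adjusted p under 0.05 as the threshold. It was run first on simulated data that held no differences between replicate numbers. That run cannot say how the fit behaves on arrays that do differ by replicate number, as these do. Replicate numbers were tested by a moderated F in a fit with group and number. Deviations from group means correlated in each of 30 same-numbered pairs of arrays (r = 0.558 to 0.835, over 11373 probe sets), so the numbers pair the arrays, and a blocked fit is given where it changes a call. The SE given for the members are from the fit without the block, which leaves differences between replicate numbers in the error. With the block the SE of the DEX changes was 0.092 for AT3G01190 and 0.138 for AT5G17820. It was 0.107 for AT5G64100 and 0.086 for AT1G14550, with the same estimates. The members and gene lists were chosen with earlier results of these data known. Named genes were the 4 members, up to 5 other peroxidases with the smallest adjusted p in each test or up to 10 past the threshold, the 3 genes most like each member, and the 2 members of the other lists with the largest difference. Many of these are covered by counts and ranges alone. AT5G64090, AT5G64110, PRX71, AT5G17830, AT5G17840 and AT3G01210 were added as neighbours after values were seen. AT4G25980 was likewise added after values were seen, for its sign over the line pairs without DEX. The design set a test of the mean line difference for the members, which is given without its p because it includes the arrays they were chosen on.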

Additional observations from a re-analysis of the deposited data

Results flagged for a closer look

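AT3G01190 and AT5G64100 were lower with DEX in every VND7 pair and higher in every empty-vector pair, with differences between the responses of -2.22 and -1.75 on the log2 scale. Those differences were not tested, since both genes were chosen for them. The VND7 changes were the smaller ones, from -0.50 to -0.08 over the pairs of AT3G01190 and from -0.86 to -0.01 over those of AT5G64100. PRX72 (AT5G66390) differed the other way, by 1.20 (limma adjusted p = 0.03063), and was higher in the VND7 line.

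None of the 16 sets of 5 levels of the 4 members held an array far from the others. Among 100 sets of levels, these 16 and those of 21 other peroxidases named by the rule, 4 did, where chance flags about 1 in 20. AT2G37130 was at 0.709 in VND7 with CHX, replicate 1, against 0.232 to 0.315 in the other 4 arrays. AT2G43480 was at 0.793 in empty vector with CHX, replicate 3, against 0.293 to 0.354. AT5G15180 was at 0.00346 in empty vector with DEX, replicate 3, against 0.0652 to 0.17, and at 0.0644 in empty vector with CHX, replicate 4, against 0.145 to 0.196.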

How the results depend on the processing

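For the mean difference between the lines, a description here, left-out arrays gave log2 values of -0.98 to -0.87 for AT3G01190, -1.09 to -0.95 for AT5G17820 and -1.41 to -1.28 for AT5G64100. For AT1G14550 they gave -0.33 to -0.18. The replicate block gave it -0.27 ± 0.06 (SE), against an SE of 0.18 without the block. Replicate 1 alone gave -0.66 for AT1G14550 and -0.66 for AT3G01190. For the DEX change with VND7, left-out arrays gave -0.74 to -0.43 for AT1G14550, and replicate 1 alone gave -0.67 for it and -0.86 for AT5G64100. The left-out fits held no block, so dropping 1 array breaks its pair and lets differences between replicate numbers in. The 5 paired VND7 changes of AT1G14550 ran only from -0.67 to -0.52. With the empty vector, left-out arrays gave -0.174 to 0.064 for AT1G14550, so its sign was not settled. For the difference between responses left-out arrays gave -0.68 to -0.36 for AT1G14550 and -2.32 to -2.11 for AT3G01190, for which the 30th-percentile pseudocount gave -2.14. Replicate 1 alone gave -1.36 for AT5G17820 and -2.22 for AT5G64100. The effect of replicate number on AT5G17820 had limma adjusted p of 0.009041 to 0.06 with 1 number left out, and lost its call without replicate 5. Of the other peroxidases, with the block 1 passed in the empty-vector line, 1 in the difference between responses (PRX72) and 3 in the line difference. In the difference between responses 0 passed with quantile normalization, without a variance trend or on MAS5 signals not scaled to the median (chosen after seeing the data), and 0 to 1 with 1 array left out. The count there was 0 without any 1 of 11 arrays: in the VND7 line DEX replicates 1, 3 and 4 and CHX replicates 1, 2 and 3, and in the empty-vector line DEX replicates 1 and 3 and CHX replicates 3, 4 and 5 (limma adjusted p for PRX72 0.0513 to 0.07247). The block raised the probe sets called to 236 and 162 from 103 and 64 in the VND7 and empty-vector DEX responses, to 239 from 89 in their difference and to 615 from 195 in the line difference.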
